A study of Mus musculus with 12 samples.

Results

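The 8 Gimap genes of the mouse (Gimap1, Gimap3, Gimap4, Gimap5, Gimap6, Gimap7, Gimap8 and Gimap9) were followed by RNA-Seq while splenic B cells were activated and became plasmablasts. Members were chosen by name, as the rows of the count table that carry their Entrez identifiers, which gave 8 of the 27179 genes counted. All 8 were among the 12750 genes that passed the filter on low counts. The series holds 12 libraries, 2 biological replicates for each of 6 stages. All cells came from male C57BL/6 mice of the Pep3b background, 6 to 12 weeks old, and the labels of the libraries give no transgene or deletion in any group. Naive cells received no treatment and were sorted from the spleen as B220+IgM+IgDhi cells without TCRβ. Every later stage started from B cells enriched by negative selection and was cultured with 25 µg/ml of lipopolysaccharide (LPS) from Salmonella typhosa, a ligand of Toll-like receptor 4 that drives B cells to divide without T cell help. Cells at 3, 10 and 33 h were sorted as CD69+ cells that had not diluted CellTrace Violet, a dye that is shared out at each division. The last pair of populations was sorted on day 4: expanded B cells carried CD22 and lacked CD138, whereas plasmablasts carried CD138 and lacked CD22. By the study's methods, the day 4 cultures were set up at a lower cell density than those for the earlier times. No cultured stage lacked lipopolysaccharide. Differences between stages therefore cannot be told apart from those of culture and sorting. Lipopolysaccharide was the sole stimulus, so other routes to a plasmablast were not sampled.

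GIMAP proteins (GTPases of immunity-associated proteins) bind GTP through an AIG1 domain related to that of the septins, and some are held on intracellular membranes by a hydrophobic tail. They are found mainly in lymphocytes, where they are known for keeping resting cells alive. Loss of GIMAP5 in mice and rats depletes T cells, and loss of GIMAP1 depletes mature T and B cells. They are encoded side by side, in a cluster of genes without unrelated coding genes between them.

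The cluster covered 123.7 kb of chromosome 6 in the mm10 (GRCm38.p6) annotation of RefSeq. In chromosome order the members were Gimap8 (chr6:48647186-48660875), Gimap9 (chr6:48676121-48679116), Gimap4 (chr6:48684578-48692062) and Gimap6 (chr6:48701583-48708244), followed by Gimap7 (chr6:48718621-48724636), Gimap1 (chr6:48739047-48743795), Gimap5 (chr6:48746197-48754200) and Gimap3 (chr6:48764464-48770851). Gimap6 and Gimap3 are transcribed from the minus strand and the others from the plus strand. No other gene that had a position in this annotation and was tested lay between them. IDs of the count table that had no match there were removed before testing. An ID among these lies between Gimap7 and Gimap1 in the count table, so a counted gene within the cluster may have been left out. The GENCODE M21 coding sequences encode 291 to 328 residues in 7 members and 688 in Gimap8, which holds 3 matches to the GTP-binding P-loop where each of the others holds 1. After alignment, Gimap3 and Gimap5 were identical at 82.7% of 301 positions, Gimap7 and Gimap9 at 54.2% of 288, and the remaining pairs at 28.7% to 45.7%. Within the last 60 residues, the most hydrophobic stretch of 19 had a mean Kyte-Doolittle hydropathy of 2.98 in Gimap3, 2.39 in Gimap5, 1.61 in Gimap1 and 1.43 in Gimap4, against -0.06 to 0.57 in Gimap6, Gimap7, Gimap8 and Gimap9. Among the members, Gimap3 and Gimap5 alone shared windows of 81 bases, the read length. Of the 2497 such windows in Gimap3 transcripts, 66 also occurred in Gimap5, and no such window was shared by any other pair. With windows of 40 bases it was 260 of 2538, again in this pair only. These counts cover identical windows within the family and not other genes. An antisense gene, Gimap1os, overlaps 2391 bases of Gimap1, and a read-through gene, Gm28053, runs across Gimap7, Gimap1 and Gimap5. Use of strand in the counting is not given in the sources used here, so reads of these overlapping genes cannot be told apart from those of the members.

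RefSeq promoters of 4 members are shown, as the 250 bases before the start site, 5′ to 3′ on the strand of the gene. Gimap1 and Gimap7 are shown because both were called at 3 h, and Gimap4 because it shared their motifs but was not called at 3 h. Gimap6 is shown because it had neither of the exact motifs marked. Capitals mark the letters AGGAAG, a form of the site bound by ETS factors, and TGTGGT, a form of that bound by RUNX factors. Both strands were searched (CTTCCT and ACCACA on the other). Other forms around GGAA, the core of ETS sites, were not searched and stand unmarked, such as cggaag in Gimap1 and Gimap6. None of these matches overlapped another. The windows are Gimap1 at chr6:48738797-48739046 (plus strand), Gimap7 at chr6:48718371-48718620 (plus), Gimap4 at chr6:48684328-48684577 (plus) and Gimap6 at chr6:48708245-48708494 (minus).
Gimap1: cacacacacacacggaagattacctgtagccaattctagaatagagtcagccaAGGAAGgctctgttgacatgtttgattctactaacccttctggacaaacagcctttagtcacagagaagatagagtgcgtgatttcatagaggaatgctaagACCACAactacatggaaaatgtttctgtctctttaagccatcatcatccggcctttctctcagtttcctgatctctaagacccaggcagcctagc
Gimap7: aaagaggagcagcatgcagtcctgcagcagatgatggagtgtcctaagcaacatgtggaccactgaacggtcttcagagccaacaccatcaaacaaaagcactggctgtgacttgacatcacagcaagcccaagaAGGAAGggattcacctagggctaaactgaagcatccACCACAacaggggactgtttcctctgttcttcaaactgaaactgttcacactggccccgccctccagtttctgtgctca
Gimap4: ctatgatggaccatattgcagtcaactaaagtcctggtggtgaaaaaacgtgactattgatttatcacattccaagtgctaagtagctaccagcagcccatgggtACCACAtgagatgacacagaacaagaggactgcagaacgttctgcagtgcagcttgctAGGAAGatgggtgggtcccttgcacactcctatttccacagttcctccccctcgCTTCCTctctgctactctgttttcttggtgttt
Gimap6: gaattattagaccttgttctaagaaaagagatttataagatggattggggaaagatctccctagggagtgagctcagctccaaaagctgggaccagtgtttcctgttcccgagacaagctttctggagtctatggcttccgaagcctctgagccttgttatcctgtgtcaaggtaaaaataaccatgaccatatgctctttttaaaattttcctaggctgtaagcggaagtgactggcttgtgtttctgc

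The exact letters AGGAAG were present before at least 1 start site of 7 members, all but Gimap6, and before 31.7% of the 18458 genes with a window of this length. The RUNX letters were present in Gimap1, Gimap4 and Gimap7, and in 14.1% of all genes. The match began 95 bases before the start in Gimap1, 79 in Gimap7 and 145 in Gimap4. Of the other motifs searched on both strands, CCACCC (KLF factors) was found in Gimap3, Gimap4, Gimap5, Gimap8 and Gimap9 and in 32.9% of all genes. TAAACA (forkhead factors) was found in Gimap3 (12.1% of all genes), CAGGTG (E proteins) in Gimap9 (19.2%), TATAAA in Gimap6 (13.3%) and CACGTG (MYC) in no member (7.6%). These matches describe the letters of the windows and say nothing about binding in these cells.

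Libraries held 23026619 to 60585587 counts, and a single member had between 71 counts (Gimap7 at 3 h, replicate 1) and 39033 counts in a library (Gimap4 at 33 h). Levels are given as RPKM, counts per kilobase of exon in a library brought to a common size by the TMM method, so that members can be compared per length. All 10 B cell markers checked were above the floor of 3 counts in every stage. Their summed RPKM was highest in naive cells, at 8060 and 7979, and lowest in plasmablasts, at 2276 and 2281. The summed RPKM of 10 plasmablast markers was 19640 and 19740 in plasmablasts against at most 2841 in any other library. The naive libraries also held RNA of other blood cells. The 10 myeloid markers summed to 436.5 and 185.2 RPKM in the naive replicates against at most 36.8 later, 5 erythroid markers to 376.7 and 287.9 against at most 3.01 later, and 8 markers of NK and innate lymphoid cells to 17.5 and 14.6 against at most 3.07 later. Since T cells also express the family, 20 T cell markers were examined. Of these, 19 were above the floor in a naive library, with sums of 266.3 and 288.3 RPKM against 20.2 to 68.4 later. Cd2 supplied 229.3 and 247.8 RPKM of the naive sums and Lck 29.4 and 32.3. The defining markers Cd3d, Cd3e and Cd3g had at most 20 counts in a naive library, in which the 8 Gimap genes had at least 66560 counts together, and none of the 3 had a count at 3 h. In bulk libraries, fewer cells that carry a transcript and less transcript per cell cannot be told apart. RPKM is also relative to the rest of a library, and no measure of RNA per cell was used here. A lower level therefore need not be less transcript per cell.

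**Figure D1:**
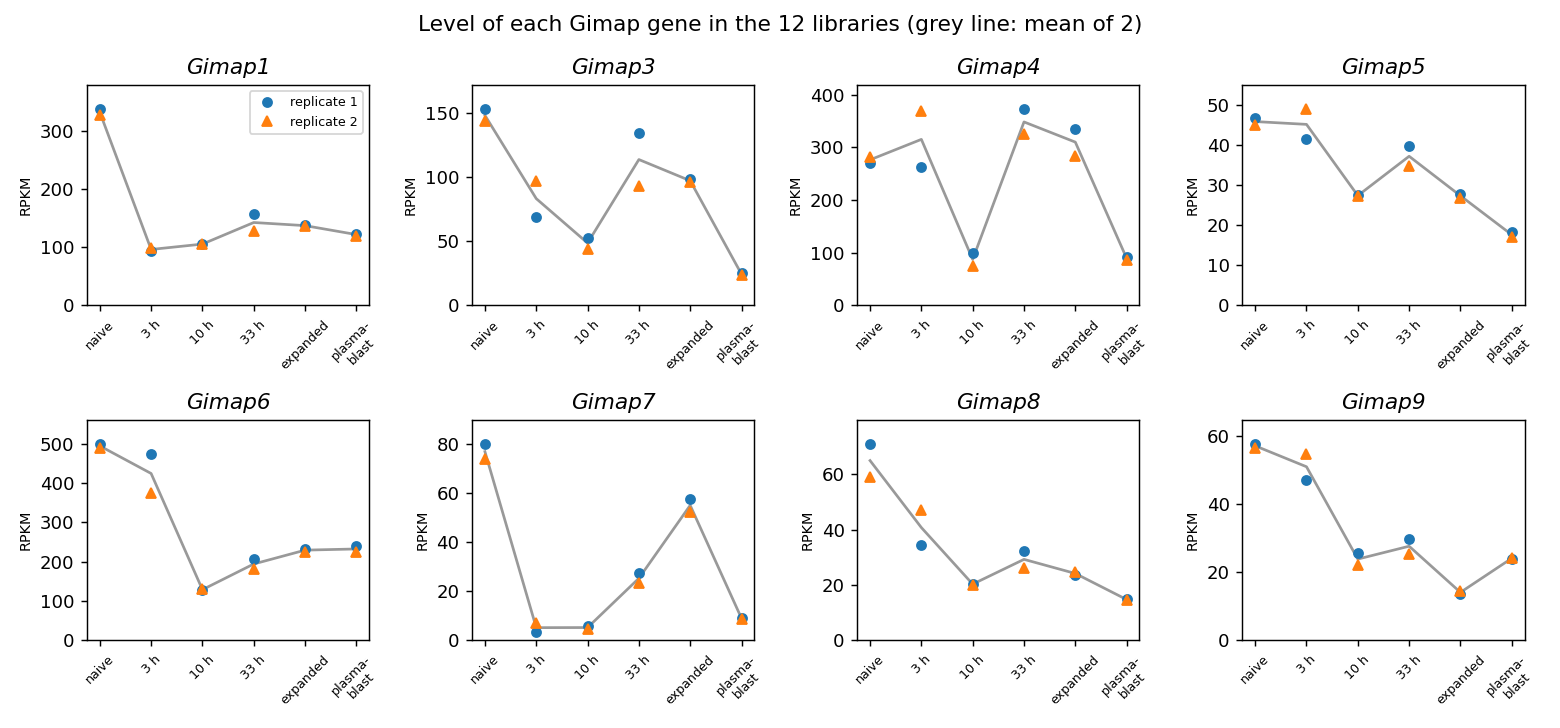
Level of each Gimap gene in RPKM (vertical axis, from 0, on a scale of its own) at the 6 stages (horizontal axis), with circles for replicate 1, triangles for replicate 2 and a grey line through the mean. Gimap7 fell from 76.8 to 5.09 RPKM by 3 h, whereas Gimap6 was at 425 RPKM at 3 h and at 129 at 10 h.

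Together, the 8 members were most abundant in naive cells and least abundant at 10 h with TMM scaling, whereas with library size alone plasmablasts were lowest (466.0 and 436.8 RPKM, against 520.2 and 480.9 at 10 h). Their summed level was 1497 ± 26.5 RPKM (SD, n = 2, as for all means here) in naive cells and 1061 ± 51.8 at 3 h. It dropped to 446.8 ± 24.9 at 10 h and stood at 918.2 ± 115 at 33 h. Expanded B cells held 894.5 ± 48.3 and plasmablasts 533.6 ± 18.5. The replicates of the 33 h and expanded stages overlapped, at 999 and 837 RPKM against 929 and 860, and no other neighbours in the order of the sums did. Orders and overlaps of stages, here and for each member, refer to TMM scaling. The make-up of this pool moved as well. Gimap6 was its largest member in the naive (33.1% of the sum), 3 h (40.2%), 10 h (28.9%) and plasmablast (43.6%) libraries. The 3 h replicates differed, with Gimap6 at 46.28% and 34.19% and Gimap4 at 25.55% and 33.53%. Gimap4 led at 33 h (38.0%) and among expanded B cells (34.6%). Gimap7 ranged from 0.47% at 3 h to 6.14% in expanded B cells.

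**Figure D2:**
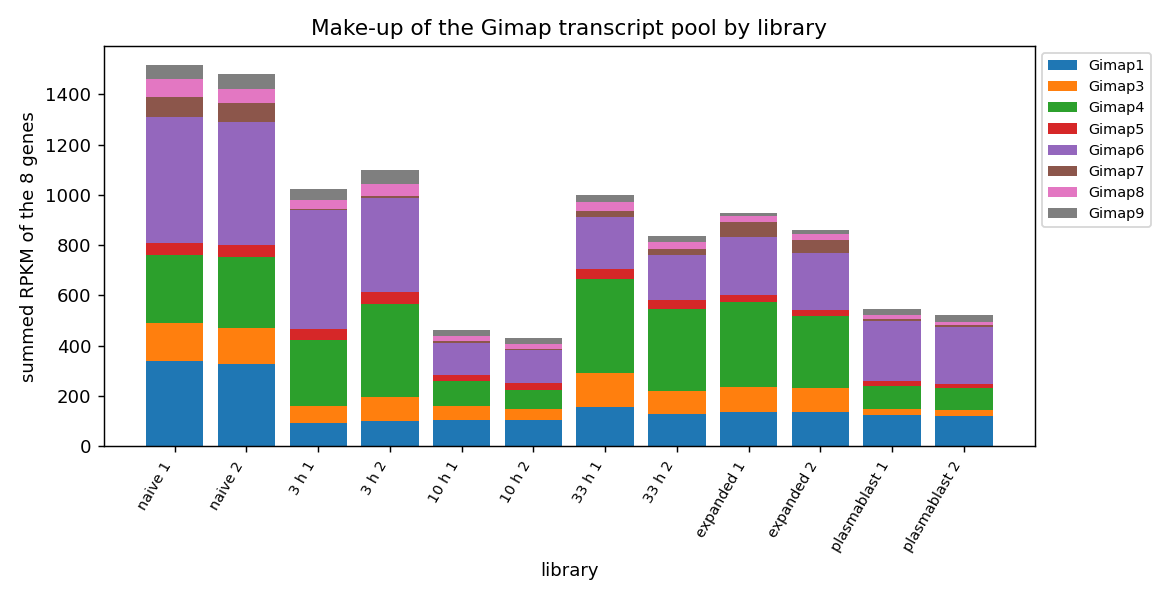
Summed RPKM of the 8 Gimap genes (vertical axis) in each of the 12 libraries (horizontal axis), with the part of each gene in a colour of its own. The bars of the 10 h libraries reach 464 and 429 RPKM, against 1516 and 1479 in the naive libraries.

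Among the members with a hydrophobic tail, Gimap1, which mature lymphocytes need for survival, fell most in RPKM at the first step and stayed low. It was at 337.8 and 328.3 RPKM in the naive replicates and at 93.2 and 99.6 at 3 h. It stood at 105.9 and 105.5 at 10 h and 157.5 and 128.2 at 33 h. Expanded B cells held 138.5 and 136.5, plasmablasts 123.9 and 120.4. Every later library was below both naive libraries. The 33 h and expanded libraries overlapped, and all other neighbours in the order of its levels were apart.

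Gimap3, a protein of the outer membrane of mitochondria, took a course with a dip at 10 h and its lowest level at the end. It was at 152.9 and 143.7 RPKM in naive cells, 69.3 and 97.3 at 3 h and 53.0 and 44.4 at 10 h. The 33 h replicates were at 134.4 and 93.3, those of expanded B cells at 98.3 and 96.3, and those of plasmablasts at 25.2 and 23.6. The plasmablast libraries were the lowest of the 12, while the 3 h, 33 h and expanded libraries lay in 1 overlapping range. Gimap5, its closest relative in sequence, was lower throughout and moved less. It was at 46.6 and 44.9 RPKM in naive cells, 41.4 and 48.8 at 3 h and 27.5 and 27.2 at 10 h. At 33 h it was at 39.6 and 34.7, and it ended at 27.9 and 26.7 in expanded B cells, against 18.2 and 17.0 in plasmablasts. Its highest and lowest stage means differed 2.60-fold, the least of the 8 members, and its naive and 3 h libraries overlapped, as did those at 10 h and of expanded B cells.

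Gimap4, known in T cells for hastening the completion of cell death, was lower at 10 h and higher again at 33 h. It was the only member with any stage mean above its naive mean. It was at 270.8 and 281.5 RPKM in naive cells, 261.8 and 368.1 at 3 h and 99.5 and 74.9 at 10 h. It was back at 371.8 and 324.4 at 33 h. Expanded B cells held 335.5 and 284.1, and plasmablasts 91.6 and 87.1. The 10 h and plasmablast libraries overlapped and lay below all others. Its 3 h libraries spanned the naive ones and overlapped those of the 33 h and expanded stages.

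Gimap6, a partner of the autophagy protein GABARAPL2, was the most abundant member in naive cells and had a later fall than Gimap1. It was at 499.6 and 490.8 RPKM in naive cells, 474.3 and 375.4 at 3 h and 126.8 and 130.6 at 10 h. From there it reached 206.6 and 181.8 at 33 h. Day 4 gave 233.6 and 225.4 for expanded B cells, with 240.2 and 224.9 for plasmablasts. The replicates of the last pair of stages overlapped, and both stood above the 10 h libraries.

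Gimap7, a GTPase that works as a dimer and can stimulate other GIMAP proteins, had the widest range, with 15.1-fold between its highest and lowest stage means. It was at 79.8 and 73.8 RPKM in naive cells and at 3.12 and 7.06 at 3 h, from 71 and 273 counts, so that the 3 h replicates differed by 1.17 on the log2 scale. It was at 5.75 and 4.52 at 10 h and 27.3 and 23.1 at 33 h. It peaked again at 57.7 and 52.2 in the expanded population, with 8.98 and 8.78 left in plasmablasts. The 3 h and 10 h libraries overlapped, and all other stages were apart.

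Gimap8, the member with 3 P-loops, was at 70.9 and 59.0 RPKM in naive cells, 34.5 and 47.0 at 3 h and 20.4 and 20.1 at 10 h. The 33 h replicates stood at 32.4 and 26.1, the expanded ones at 23.6 and 24.6, and the plasmablast ones at 14.8 and 14.6, so its naive libraries were the highest and its plasmablast libraries the lowest. Gimap9, the closest relative of Gimap7, followed another course than Gimap7. It was at 57.6 and 56.6 RPKM in naive cells, 47.2 and 54.7 at 3 h and 25.6 and 22.0 at 10 h. After 29.8 and 25.4 at 33 h, it was at 13.5 and 14.6 in the expanded population, against 23.9 and 24.2 for plasmablasts. Its expanded libraries were the lowest of the 12, where those of Gimap7 were second to the naive libraries.

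Changes between stages were tested for all 12750 genes with edgeR's glmTreat against a fold change of 1.5, with Benjamini-Hochberg adjustment, and a member was called where the adjusted p was under 0.05. All 12 libraries shared 1 estimate of the spread. With 2 libraries a stage, an exact two-sided permutation test reaches 0.333 at best, so smaller values rest on that shared estimate. Log2 fold changes are given with their standard error (SE).

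By 3 h after lipopolysaccharide, 2 of the 8 members were called down, close to the share of all tested genes, of which 24.3% were called down and 21.0% up. The quasi-likelihood F-test, for a change of any size, called 4 members down, Gimap1, Gimap3, Gimap7 and Gimap8, against 4633 of 12750 genes. Gimap7 had a log2 fold change of -3.86 (SE 0.26, adjusted p = 2.26e-07 from glmTreat), and Gimap1 of -1.79 (SE 0.10, adjusted p = 4.75e-08). Both passed the test without any 1 of the 4 libraries, but the size for Gimap7 rested on its unequal 3 h replicates, with -3.44 without the first and -4.65 without the second. The log2 fold changes of Gimap3 (-0.83, adjusted p = 0.0629) and Gimap8 (-0.67, adjusted p = 0.204) did not pass glmTreat, nor did those of Gimap6 (-0.22), Gimap9 (-0.16), Gimap5 (-0.02) and Gimap4 (0.19). With no filter on low counts, or with at least 10 counts in every library, Gimap3 was called down as well, which made 3 members. Scaled by library size alone, or without the second 3 h replicate, 4 members were called down, the additional pair being Gimap3 and Gimap8, and Gimap4 then changed sign. The median log2 fold change was -0.45 over the family and -0.03 over all tested genes. Of the 10 B cell markers, 6 were called down and 0 up by 3 h, with a median of -0.903. Of the markers of other cells described above, all 10 myeloid, all 8 NK and innate lymphoid, all 4 tested erythroid and 12 of 16 tested T cell markers were called down over the same step, and their part in the result was not tested.

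From 3 h to 10 h, 4 members were called down, and neither member of the pair called by 3 h was among them. The shares of all genes were 13.4% down and 17.4% up. The F-test called 6 members down, with Gimap3 and Gimap5 added, against 3848 of 12750 genes. By that test Gimap3 and Gimap8 were down at both steps, so the lack of overlap holds for the 1.5-fold test only. Gimap4 fell by 1.85 (SE 0.17, adjusted p = 1.89e-05 from glmTreat) and Gimap6 by 1.72 (SE 0.11, adjusted p = 6.07e-07), which is 3.61-fold and 3.30-fold. Gimap9 fell by 1.10 (SE 0.11, adjusted p = 0.000419) and Gimap8 by 1.01 (SE 0.14, adjusted p = 0.00546). Gimap1 (0.13) and Gimap7 (-0.04) stayed within 0.14 of their 3 h level on the log2 scale, with 95% intervals of -0.07 to 0.34 and -0.62 to 0.54. Gimap3 (-0.78) and Gimap5 (-0.72) did not pass the 1.5-fold test. Scaling by library size alone turned the sign of Gimap7, as did leaving out the second 3 h or the second 10 h replicate. Library size alone, which raised the median change of all genes by 0.33, left 2 members called, Gimap4 and Gimap6. Gimap8 also lost its call without the second 3 h replicate (adjusted p = 0.0897).

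From 10 h to 33 h, still before the first division, the family turned upward. The test against 1.5-fold called 3 members up and none down, against 10.1% of all genes up and 4.45% down. Gimap7 rose by 2.29 (SE 0.24, adjusted p = 8.85e-05 from glmTreat), Gimap4 by 2.00 (SE 0.17, adjusted p = 1.49e-05) and Gimap3 by 1.23 (SE 0.18, adjusted p = 0.00427). A change of any size, tested with the quasi-likelihood F-test, was called upward in 7 members, all but Gimap9, against 23.2% of all genes. The 4 members called by the F-test alone were Gimap6 (0.59), Gimap8 (0.53), Gimap5 (0.44) and Gimap1 (0.44), and Gimap9 was at 0.21. Gimap3 lost its 1.5-fold call without the first 33 h replicate (adjusted p = 0.0562). The median log2 fold change was 0.56 over the family and -0.02 over all genes.

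**Figure D3:**
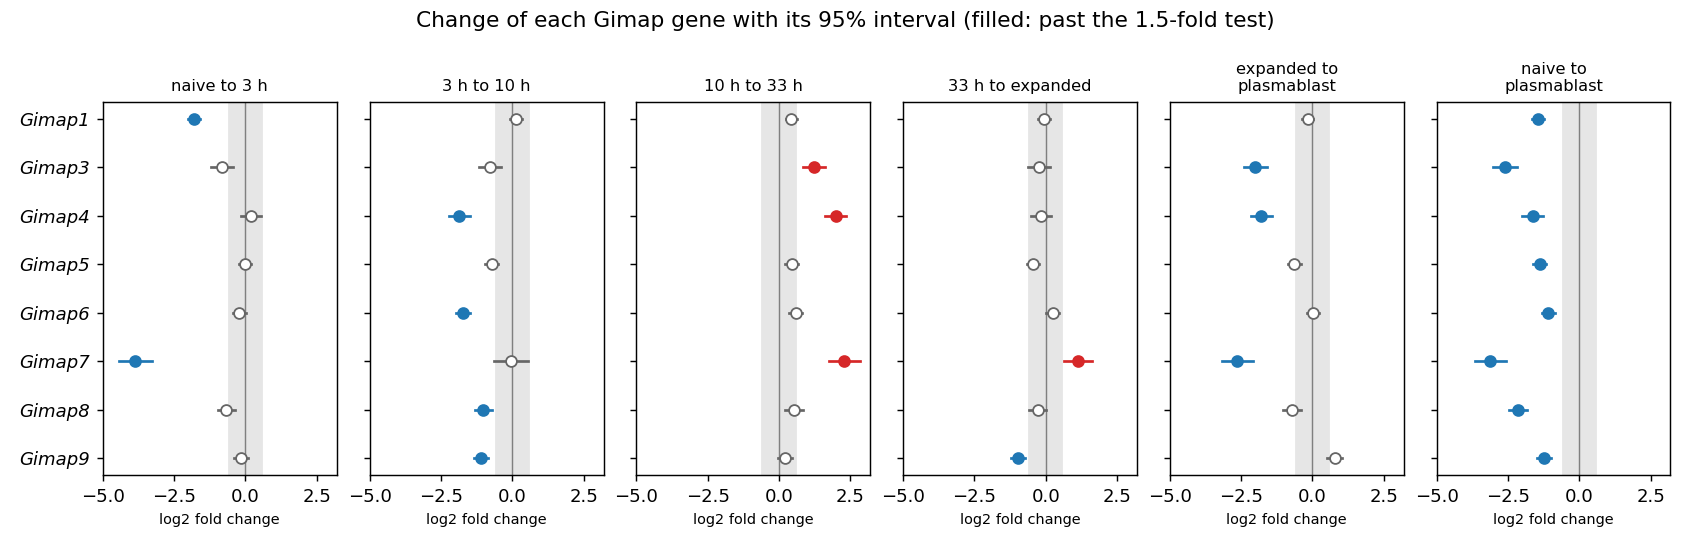
Log2 fold change (horizontal axis) of each Gimap gene (rows) over the 5 consecutive transitions and from naive cells to plasmablasts, with 95% intervals. Filled symbols passed the test against 1.5-fold (blue down, red up), and grey bands mark changes under 1.5-fold. All 8 symbols are filled in the last panel, whereas 2, 4, 3, 2 and 3 are filled in the transitions.

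Between undivided cells at 33 h and expanded B cells, Gimap7 and its relative Gimap9 moved in opposite directions. Gimap7 rose by 1.12 (SE 0.22, adjusted p = 0.0415 from glmTreat) and Gimap9 fell by 0.98 (SE 0.12, adjusted p = 0.00735). That is 1 member up and 1 down, against 6.94% of all genes up and 3.66% down. The F-test called 1 up, Gimap7, and 2 down, Gimap9 and Gimap5, against 2353 of 12750 genes up and 2700 down. Both calls were close to the threshold. The call of Gimap7 was lost without any 1 of the 4 libraries (adjusted p = 0.0931 to 0.183), and that of Gimap9 without the first 33 h replicate (0.0927) or the first expanded replicate (0.0679). The others were Gimap5 (-0.45), Gimap8 (-0.28), Gimap3 (-0.23), Gimap4 (-0.17), Gimap1 (-0.06) and Gimap6 (0.24).

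Plasmablasts differed from expanded B cells of the same day by a fall of the 3 members that the 1.5-fold test had called up at 33 h. Gimap7 was lower by a log2 fold change of -2.63 (SE 0.24, adjusted p = 1.27e-05 from glmTreat), Gimap3 by -2.00 (SE 0.18, adjusted p = 1.85e-05) and Gimap4 by -1.79 (SE 0.17, adjusted p = 2.93e-05), which is 6.19-fold, 3.99-fold and 3.47-fold lower. No member was called up by this test, and the shares of all genes were 12.2% down and 13.9% up. The F-test called 5 down, with Gimap8 and Gimap5 added, and 1 up, Gimap9, against 3787 of 12750 genes down and 3469 up. Gimap9 was at 0.78 (adjusted p = 0.0662), Gimap8 at -0.72 and Gimap5 at -0.63. Gimap1 (-0.17) and Gimap6 (0.02) had 95% intervals of -0.38 to 0.03 and -0.21 to 0.24. With library size alone, Gimap5 and Gimap8 were called down too, which made 5 members, and Gimap6 changed sign (-0.32).

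Measured against naive cells, the family was lower at the end of the series in every member. The 3 comparisons share the naive libraries and are given side by side. At 33 h, 5 members were called down (20.8% of all genes down, 22.3% up): Gimap7 (-1.61), Gimap6 (-1.35), Gimap1 (-1.22), Gimap8 (-1.15) and Gimap9 (-1.05). In expanded B cells, 5 were called down (22.2% of all genes down, 24.9% up): Gimap9 (-2.02), Gimap8 (-1.43), Gimap1 (-1.28), Gimap6 (-1.11) and Gimap5 (-0.75). The call of Gimap5 had an adjusted p of 0.0442 from glmTreat and was lost without any 1 of the 4 libraries. Gimap4 did not pass in either, with log2 fold changes of 0.33 and 0.17, and neither did Gimap3, with -0.38 and -0.61. Gimap5 at 33 h (-0.30) and Gimap7 in expanded B cells (-0.48) were not called.

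In plasmablasts, 8 of 8 members were called down, against 23.4% of all genes down and 26.6% up. The largest log2 fold changes were those of Gimap7 (-3.11, SE 0.25, adjusted p = 7.40e-07 from glmTreat), Gimap3 (-2.61, SE 0.19, adjusted p = 3.34e-07) and Gimap8 (-2.15, SE 0.15, adjusted p = 1.61e-07). Gimap4 was at -1.63 (SE 0.17), Gimap1 at -1.45 (SE 0.10), Gimap5 at -1.38 (SE 0.11) and Gimap9 at -1.25 (SE 0.12). Gimap6 changed least, at -1.09 (SE 0.11, adjusted p = 0.000105). The 8 calls held under all 14 alternatives. The median was -1.54 over the family and 0.02 over all tested genes. Of the 10 B cell markers, 9 were called down and 1 up, with a median of -2.365. Of the markers of other cells, 7 of 10 myeloid, 7 of 8 NK and innate lymphoid, all 4 tested erythroid and 10 of 16 tested T cell markers were called down as well. Another 2 T cell markers were called up, and their part in the result was not tested. Cd3g had 33 and 27 counts in plasmablasts against 15 and 12 in naive cells.

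The members did not move as a unit across the 12 libraries. Pearson's r between pairs, on log2 RPKM with a prior count of 2, ran from -0.05 (Gimap7 and Gimap9) to 0.93 (Gimap5 and Gimap8). Gimap3 correlated at 0.87 with Gimap4 and at 0.86 with Gimap5, and Gimap1 at 0.81 with Gimap7. Against the mean of the other 7 members, Gimap8 had the highest r (0.90) and Gimap9 the lowest (0.44). These are descriptions over 12 libraries that share stages, depth and scaling. Over the 8605 genes outside the family whose average log2 CPM was 3 or more, those closest to the mean of the family were Itgb7 (r = 0.98), Acap1 (0.98), Cotl1 (0.98), Gsn (0.97), Cd2 (0.97), Prex1 (0.97), Fcgrt (0.97) and Nrm (0.97). Itgb7, which encodes the integrin chain β7, had stage means of 151.9, 19.6, 1.32, 13.9, 18.0 and 2.51 RPKM in the order of the stages. Like the family, it was highest in naive cells and higher at 33 h than at 10 h. None of the 8 was among the 8 closest by Spearman's rho, so the choice of these names rests on the measure.

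Genes next to the cluster took mixed courses. Of the 5 nearest tested genes on the side of Gimap8, Lrrc61 was lower in plasmablasts than in naive cells (log2 fold change -3.44, SE 0.17, adjusted p = 1.80e-09 from glmTreat), as was AI854703 (-2.07, SE 0.52, adjusted p = 0.00851). Lrrc61 had already been called down by 3 h (-2.04, SE 0.15). Zfp775 (-0.48), Repin1 (0.14) and Zfp862-ps (0.17) were not called. On the side of Gimap3, the nearest genes were Tmem176b and Tmem176a, which overlap each other and encode transmembrane proteins. They were higher in plasmablasts, by 2.87 (SE 0.13, adjusted p = 1.54e-09) and 3.02 (SE 0.24, adjusted p = 3.46e-07), where the 8 members next to them were lower. Earlier, both ran in the direction of Gimap7: by 3 h they were called down, at -2.10 (SE 0.17) and -2.45 (SE 0.34), and from 10 h to 33 h up, at 1.55 (SE 0.17) and 2.13 (SE 0.35). Gpnmb was also called up, from a naive level at the floor, and Malsu1 (0.60) and Igf2bp3 (-0.14) were not called.

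**Figure D4:**
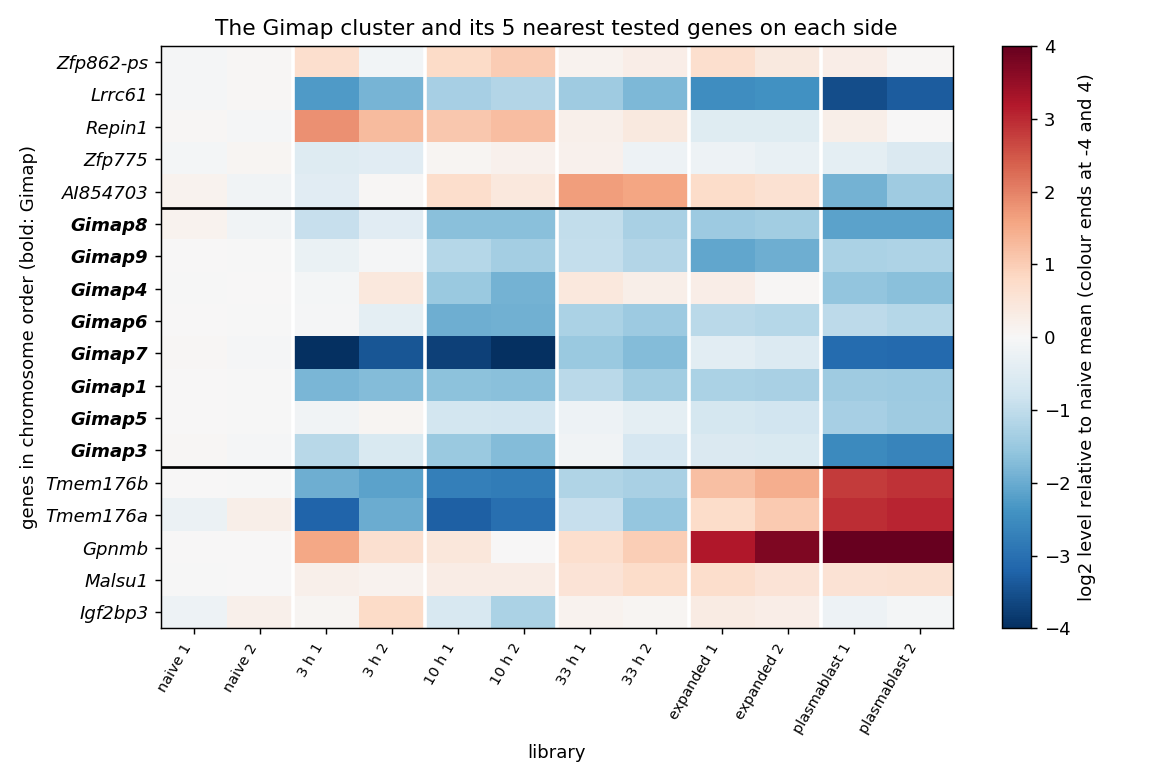
Log2 level relative to the mean of the naive libraries (colour, blue lower and red higher) of the Gimap genes, in bold between black lines, and of the 5 nearest tested genes on each side, in chromosome order (rows), over the 12 libraries (columns). All 8 Gimap rows are blue in the plasmablast libraries, and the rows of Tmem176b and Tmem176a next to them are red.

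Calls in other lists of genes were taken from the same glmTreat fit over all 12750 genes. Of all these genes, 26.6% were called up and 23.4% down from naive cells to plasmablasts. The shares were 21.0% up and 24.3% down by 3 h, and 17.4% up and 13.4% down from 3 h to 10 h. Of the septins, cytoskeletal GTPases related to the family, 10 of 13 were tested. From naive cells to plasmablasts 4 were called up and 1 down, with Septin5 (4.24, SE 0.33), Septin11 (1.40, SE 0.11) and Septin7 (1.08, SE 0.09) among the rises, and the median of the 10 was 0.56. Of 14 interferon-inducible GTPases, immune GTPases outside the cluster, 10 fell and none rose over the same comparison, among them Mx1 (-3.80, SE 0.73), Gbp2 (-3.33, SE 0.23) and Gbp9 (-2.96, SE 0.17), with a median of -1.98. Their early calls were as follows: 8 fell by 3 h, and from 3 h to 10 h 9 rose and none fell, where 4 Gimap genes fell and none rose. Gbp7 was at -3.24 (SE 0.17) by 3 h and at 2.01 (SE 0.17) from 3 h to 10 h.

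The 14 proteins linked to GIMAP function, of the BCL2 and GABARAP families and of the GSK3 and HSC70 pathways, moved in both directions. From naive cells to plasmablasts 5 of 14 genes rose and 1 fell, against 26.6% of all genes up and 23.4% down, with a median of 0.46. Bcl2, which protects resting lymphocytes from apoptosis, fell by 2.99 (SE 0.17), whereas Bcl2l1, which encodes the survival protein BCL-XL, rose by 5.06 (SE 0.19) and Bcl2l11, which encodes the death-promoting BIM, by 2.64 (SE 0.10). At 3 h, when Gimap1 and Gimap7 fell, Bcl2 fell by 2.41 (SE 0.17) and Bcl2l1 rose by 6.91 (SE 0.21). Of 20 genes known from resting lymphocytes, 11 fell and 1 rose over the same comparison, beside the same shares of all genes, with a median of -1.22. Klf2, a transcription factor of quiescence and trafficking, fell by 8.79 (SE 0.33). Il7r was also called down, to the floor of 3 counts. From 10 h to 33 h, when 3 Gimap genes were called up, 2 of these 20 rose, among them Cdkn2c (1.71, SE 0.17), and 1 fell, Btg1 (-1.20, SE 0.13). These counts were close to the shares of all genes, 10.1% up and 4.45% down.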

How the data were processed

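RNA-Seq libraries were made from polyA RNA with a TruSeq kit and sequenced as 81 base read pairs. The authors aligned reads to mm10 with Rsubread 1.28.0 and counted them per Entrez gene with featureCounts, and CASAVA 1.8.2 is named in the submitters' processing notes. The deposited values are these raw counts, with neither normalization nor a filter, beside each gene's exon length. The 12 single-sample files repeat the columns of the series table.

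Of the gene IDs, 25275 were matched to RefSeq (GRCm38.p6). After the study's methods, X, Y, mitochondrial and ribosomal RNA genes, immunoglobulin segments and unmatched IDs were removed, which left 84.0% to 90.6% of the counts. edgeR 4.0.16 (R 4.3.3) was run with filterByExpr, TMM, robust quasi-likelihood dispersions by the earlier method and 1 layout of 6 stages. glmTreat against 1.5-fold and the F-test used Benjamini-Hochberg adjustment with a threshold of 0.05. Log2 RPKM for correlations used a prior count of 2. The alternatives were DESeq2 1.42.0 (size factors, Wald test), library size alone, other filters on low counts, other dispersion settings, a replicate block, fits to 4 libraries, keeping removed genes and leaving out each library. The steps were tested on simulated data. A count of 0 allows up to 3 counts, or 0.0495 to 0.130 CPM of a library, for counting error only.

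All 8 members are named for each comparison. From each related list, up to 3 called genes with the largest change and an average log2 CPM of at least 0 were named, apart from an item that is not reported here. The members, lists and motifs were chosen with earlier results of these data known. The Hi-C data of the study were not analysed here.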

Additional observations from a re-analysis of the deposited data

How the results depend on the processing

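The fall of all 8 members from naive cells to plasmablasts and the 5 falls to 33 h kept their direction and call under all 14 alternatives each. With library size alone, the members called down were 4 by 3 h, 2 from 3 h to 10 h and 5 from expanded B cells to plasmablasts, and 0 were called up from 33 h to expanded B cells. At that transition DESeq2's Wald test called 0 up and 0 down and the replicate block 0 up. Leaving out 1 library gave 2 to 4 called down by 3 h, and from 33 h to expanded B cells 0 up and 0 to 1 down. The lone library left in such a stage was assumed to vary like the other stages. From expanded B cells to plasmablasts 1 member, Gimap9, was called up with DESeq2's size factors and with only the 4 libraries compared. The cause of these differences was not tested.

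Log2 fold changes turned sign only where the main value was not called. With library size alone, these were Gimap4 by 3 h (-0.014), Gimap7 from 3 h to 10 h (0.28) and Gimap6 from expanded B cells to plasmablasts (-0.32), which was also at -0.015 with no filter. Leaving out 1 library gave -0.10 to 0.42 for Gimap4 and -0.17 to 0.097 for Gimap5 by 3 h, and -0.45 to 0.74 for Gimap7 from 3 h to 10 h. It gave -0.20 to 0.099 for Gimap1 and -0.47 to 0.058 for Gimap3 from 33 h to expanded B cells, and -0.013 to 0.092 for Gimap6 from expanded B cells to plasmablasts. Of the 8 genes closest to the family, 0 were among the 8 closest by Spearman's rho and 6 when genes down to an average log2 CPM of 0 entered. No effect shared by replicate number was seen: of 15 pairs of stages, 0 had replicate differences correlated above 0.1 (-0.139 to 0.0841). This cannot show whether libraries of the same number shared mice or cultures. The replicate block moved no other count of calls by over 1.5 times, F-test counts included. With 2 libraries a stage, a change near 1.5-fold can fall on either side of the threshold.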
